A study of Homo sapiens with 2 samples.

Results

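Small nucleolar RNA (snoRNA) host genes were examined in MOLM-13 cells, an established human acute myeloid leukemia (AML) line. They were the 36 genes of 50868 in the deposited table that carried an SNHG number or were GAS5, ZFAS1, EPB41L4A-AS1, TAF1D, DANCR, CCDC26 or MIR17HG. RNA-seq was done on 1 library of cells with the empty vector (Vector) and 1 library of cells labelled as overexpressing UNC5B (OE-UNC5B). Per the study's methods, UNC5B was carried by a lentivirus with a CMV promoter, 3×FLAG and mCherry, and infected cells were selected with puromycin. The line carries a KMT2A::MLLT3 fusion. UNC5B had 0 reads in each library, so its overexpression was not visible in these counts, and the group names are those of the labels.

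Depth was 13715566 counted reads in Vector against 15637137 in the OE-UNC5B-labelled library. All 10 myeloid markers examined had reads, including SPI1 with 3219 and 3228 reads, and their median log2 ratio was 0.15, with 6 of them above 0. LYZ (51742 and 23700 reads) and MPO (3363 and 1553 reads) were called lower at 2-fold, and MEIS1 (247 and 542 reads) and PTPRC (1592 and 3102 reads) higher at 1.5-fold. The markers summed to 74366 and 50191 reads, and without LYZ to 22624 and 26491 reads. Among other cell types, 3 of 4 endothelial markers (CDH5, KDR and TEK) and 3 of 4 epithelial markers were at 0 in both libraries. The sums over the lists, Vector first, were 1 and 2 reads for endothelial, 5 and 2 for epithelial, 23 and 9 for fibroblast, 72 and 114 for lymphoid and 14 and 8 for erythroid markers. The part of these shifts in the host gene values was not tested. Since each group held 1 library, differences have no replicate check. The intervals given are 95% Clopper-Pearson intervals that cover counting error only. An effect of the construct and a difference between the cultures cannot be told apart.

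snoRNAs are short RNAs that guide the chemical modification of ribosomal RNA and other RNAs. Box C/D snoRNAs direct 2′-O-methylation, H/ACA snoRNAs direct pseudouridylation, and small Cajal body RNAs (scaRNAs) do the same for spliceosomal RNAs. In human cells most are cut out of the introns of host genes. The spliced exons of many hosts carry no long open reading frame, are bound by ribosomes and are then degraded by nonsense-mediated decay (NMD), a pathway that needs translation. Many host transcripts also begin with a terminal oligopyrimidine (TOP) tract, as ribosomal protein mRNAs do. GAS5, the growth arrest specific transcript, was named for its accumulation in arrested cells, in which its spliced RNA is less readily degraded. CCDC26 and MIR17HG host no snoRNA but were counted with the hosts, as the choice by name included them. The former is a long non-coding RNA (lncRNA) gene, and the latter is the precursor of the miR-17-92 microRNAs.

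In RefSeq positions of GRCh38, GAS5 held 10 box C/D snoRNAs and 1 H/ACA snoRNA, SNHG1 held 8 box C/D snoRNAs, and SNHG14 held 83 box C/D snoRNAs. TAF1D, which encodes a subunit of the RNA polymerase I initiation factor SL1, held 2 box C/D and 6 H/ACA snoRNAs. To show what the hosts carry, 5 box C/D snoRNAs are printed as DNA letters, from the GENCODE 44 transcripts or, for SNORD44, from the genome at the RefSeq position. The capitals mark box C (TGATGA), near the 5′ end and after a purine where matches overlap, and box D (CTGA), near the 3′ end.
SNORD49A (SNHG29, chr17:16440036-16440106, plus strand): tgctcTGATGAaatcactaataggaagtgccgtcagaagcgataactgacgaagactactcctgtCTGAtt
SNORD48 (SNHG32, chr6:31835263-31835326, plus strand): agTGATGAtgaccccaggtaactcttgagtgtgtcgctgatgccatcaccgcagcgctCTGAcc
SNORD44 (GAS5, chr1:173865968-173866028, minus strand): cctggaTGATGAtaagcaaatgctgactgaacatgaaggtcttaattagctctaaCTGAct
SNORD116-1 (SNHG14, chr15:25051477-25051571, plus strand): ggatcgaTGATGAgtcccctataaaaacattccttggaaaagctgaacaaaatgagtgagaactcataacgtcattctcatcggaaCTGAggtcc
SNORD115-1 (SNHG14, chr15:25170723-25170804, plus strand): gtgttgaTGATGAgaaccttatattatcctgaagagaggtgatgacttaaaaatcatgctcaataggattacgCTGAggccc
SNORD49A lies in the host with the most reads, SNORD48 and SNORD44 in others of the 4 with the most reads, and SNORD116-1 and SNORD115-1 in the host with the highest ratio among well covered hosts. Both boxes were read on the strand of the host in each of these.

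Of the 36 genes, 32 had at least 10 reads over both libraries and were compared. SNHG18, SNHG24, SNHG27 and SNHG28 had 0 reads in both libraries, which allows up to 3 reads, or 0.222 CPM (counts scaled to library size with TMM) in Vector and 0.189 CPM in the OE-UNC5B-labelled library. Summed over the 36 genes, Vector held 46027 reads, against 53084 in the OE-UNC5B-labelled library. This was 0.336% of counted reads (95% interval 0.333 to 0.339) and 0.339% (95% interval 0.337 to 0.342). The summed log2 fold change after TMM scaling was -0.03 (95% interval -0.05 to -0.01). Of these reads, not corrected for gene length, the 4 hosts with the most reads held 65.1% in Vector and 62.7% in the OE-UNC5B-labelled library.

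**Figure D1:**
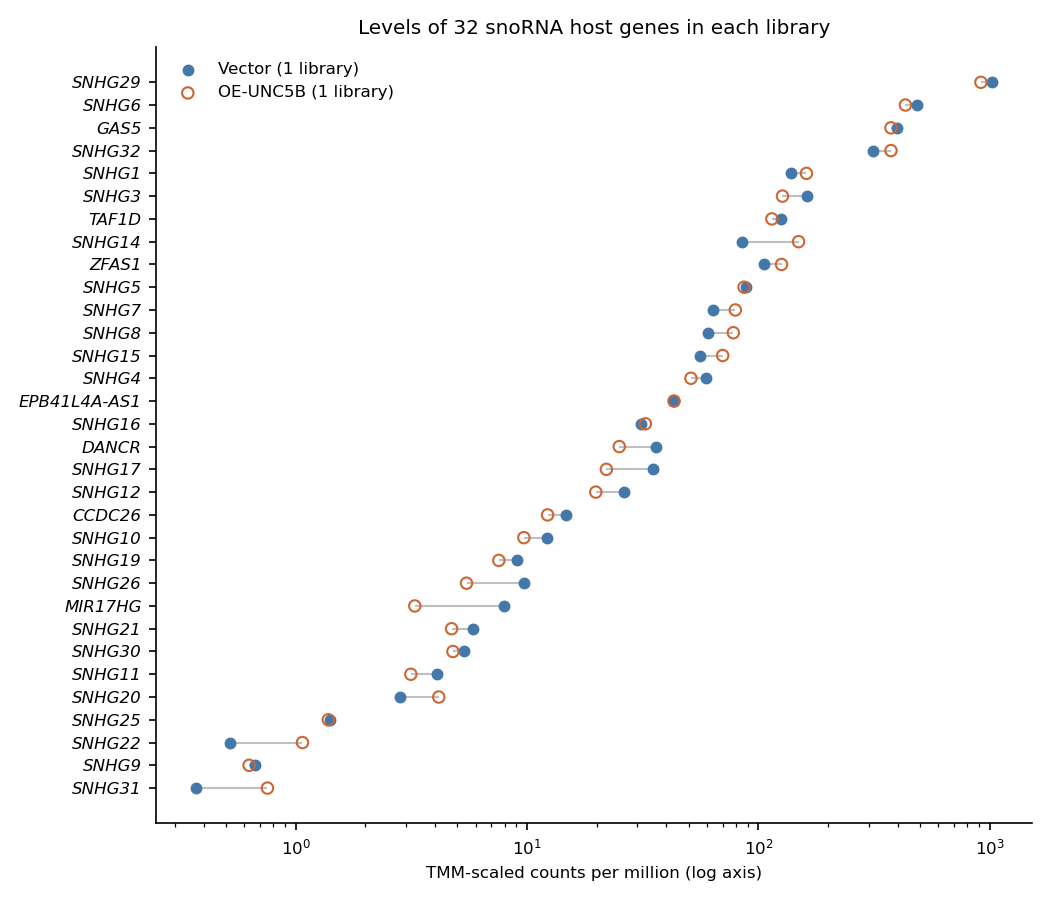
TMM-scaled CPM (log axis) of the 32 compared genes, in order of their reads, with filled points for Vector and open points for the OE-UNC5B-labelled library (1 library each). The levels run from 1024 CPM for SNHG29 in Vector to 0.371 CPM for SNHG31 in Vector, and MIR17HG, SNHG26 and SNHG14 have the widest pairs among genes with at least 100 reads.

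Levels of different hosts were then compared per length. By the deposited FPKM (fragments per kilobase of gene length, scaled to library size), SNHG6, the host of SNORD87, was highest, at 232 FPKM in Vector and 214 FPKM in the OE-UNC5B-labelled library. It was followed by SNHG32 with 72.4 and 89.4 FPKM and SNHG29 with 60.5 and 55.9 FPKM. SNHG8 had 32.6 and 43.5 FPKM, and GAS5 had 33.5 and 32.5 FPKM. SNHG6, SNHG32 and SNHG29 also led when TMM-scaled CPM was divided by the kilobases of annotated exons within the deposited locus. On that scale SNHG6 had 346 and 308, SNHG32 174 and 208, and SNHG29 117 and 104 CPM per kilobase.

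The FPKM of other hosts depended on the length that the deposited values used. This length follows from count and FPKM, and it was within 0.05 of a whole number for 98.7% of the 11346 genes with at least 50 reads in the OE-UNC5B-labelled library. For GAS5 it was 11715 bases, although the deposited locus spans 4983 bases. For SNHG1 it was 14273 bases against a span of 3927 bases. The length exceeded the span in 11 of the 32 compared hosts, and in 9.83% of those 11346 genes. SNHG1 was therefore at rank 12 of the hosts by FPKM (9.53 and 11.5) and at rank 6 by exon length (35.2 and 41.1 CPM per kilobase). The same length applies to both libraries, so the ratio between them is not affected.

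A host was called where its ratio was 2-fold or more and the counting interval lay on that side of no change, and by this rule 0 of the 32 hosts were called higher and 1 was called lower in the OE-UNC5B-labelled library. Over the 15384 genes compared in the whole table, 3.8% were called higher and 3.71% lower by this rule. At 1.5-fold, 1 host was called higher (SNHG14) and 3 were called lower (MIR17HG, SNHG26 and SNHG17), against 9.14% of all genes higher and 8.73% lower. The median log2 fold change of the 32 hosts was -0.11, and that of all compared genes was -0.01. There were 11 hosts above 0 and 21 below 0, while 49.4% of all genes were above 0. With library totals in place of TMM, 14 hosts were above 0 and 18 below 0.

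**Figure D2:**
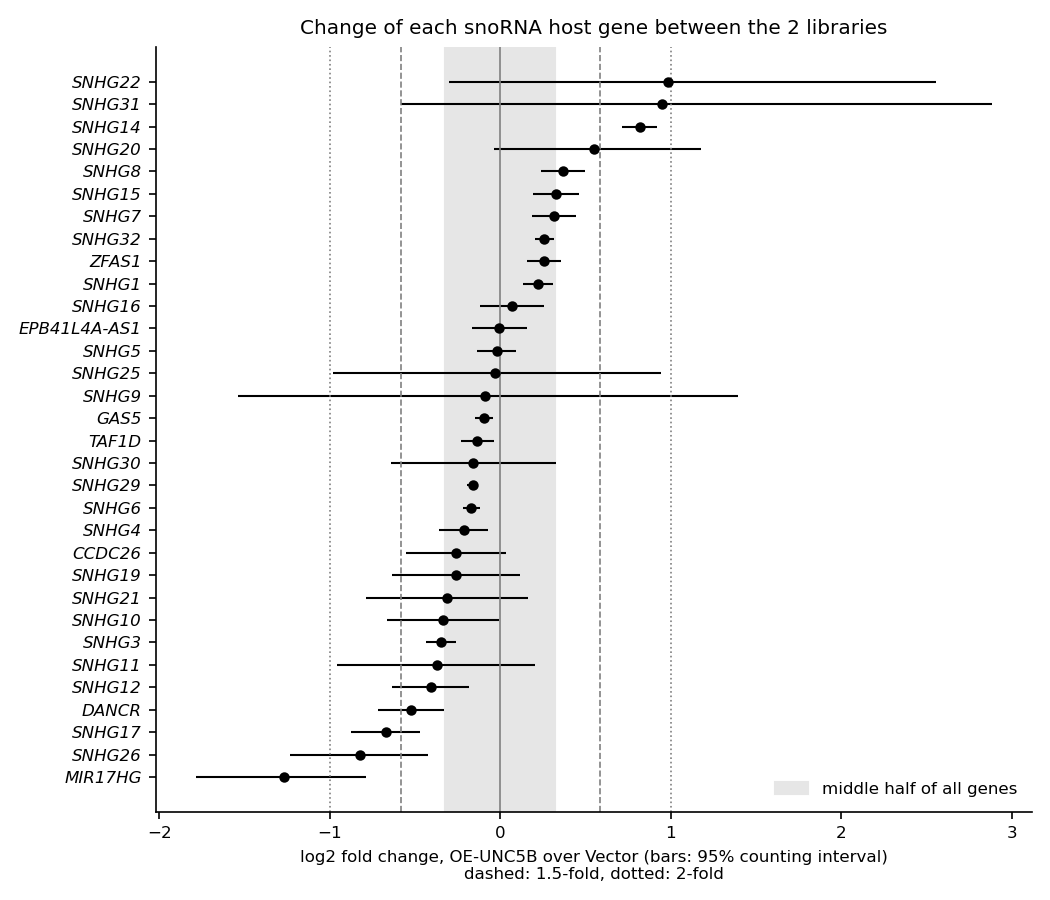
Log2 fold change of the 32 compared genes, the OE-UNC5B-labelled library over Vector, with 95% counting intervals as bars, 1.5-fold (dashed) and 2-fold (dotted) lines, and the interquartile range of all genes in grey. MIR17HG is the one gene called beyond 2-fold, at -1.27, and SNHG14 is the one called beyond 1.5-fold on the higher side, at 0.82.

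The 4 hosts with the most reads changed little. SNHG29, which holds SNORD49A, SNORD49B and SNORD65, had 13820 reads under Vector, compared with 14552 in the OE-UNC5B-labelled library. After scaling this was 1024 and 915 CPM, a log2 fold change of -0.16 (95% interval -0.20 to -0.13). SNHG6 had 6551 and 6865 reads, or 486 and 432 CPM, a log2 fold change of -0.17 (95% interval -0.22 to -0.12). GAS5 had 5385 and 5945 reads, or 399 and 374 CPM, a log2 fold change of -0.09 (95% interval -0.15 to -0.04). These 3 hosts were slightly lower after scaling although their raw counts were higher in the deeper library. SNHG32, the host of SNORD48 and SNORD52, had 4221 and 5945 reads, or 313 and 374 CPM, a log2 fold change of 0.26 (95% interval 0.20 to 0.31). All 4 intervals left out 0, but the largest of these differences was 1.2-fold.

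SNHG1, the host of SNORD22 and SNORD25 to SNORD31, had 1866 and 2564 reads, with a log2 fold change of 0.22 (95% interval 0.14 to 0.31). ZFAS1, transcribed in the antisense direction from the promoter region of ZNFX1, had 1422 and 2001 reads and a log2 fold change of 0.26 (95% interval 0.16 to 0.36). Its antisense partner ZNFX1 had 619 and 735 reads, a log2 fold change of 0.01. The 3 H/ACA hosts SNHG7, SNHG8 and SNHG15 moved in the same direction. SNHG7, host of SNORA17A and SNORA17B, had 862 and 1263 reads, SNHG8, host of SNORA24, had 815 and 1238 reads, and SNHG15, host of SNORA9, had 753 and 1114 reads. Their log2 fold changes were 0.31, 0.37 and 0.33. Together with SNHG14, SNHG1, ZFAS1 and SNHG32, they were the hosts whose intervals lay above 0, which were 7 in all. Over all compared genes, 25.2% had an interval above 0.

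Intervals below 0 were found for 12 hosts, and for 26.2% of all compared genes. SNHG3, host of the SNORA73A and SNORA73B RNAs needed for ribosomal RNA processing, had 2184 and 2019 reads, a log2 fold change of -0.35 (95% interval -0.44 to -0.26). RCC1, which shares 242 exonic bases with SNHG3 on the same strand, had 3248 and 2230 reads and a log2 fold change of -0.78. Reads of such overlapping genes can be split between them by the counting, so the SNHG3 value is uncertain. TAF1D had 1695 and 1817 reads, a log2 fold change of -0.14 (95% interval -0.23 to -0.04), and SNHG4 had 800 and 812 reads, a log2 fold change of -0.21. SNHG4 shares 555 exonic bases on the same strand with ENSG00000280987, which had 1335 and 1764 reads and a log2 fold change of 0.17. This is the row of MATR3, a nuclear matrix protein gene, with fewer reads, and ENSG00000015479, the other row of that symbol, had 1765 and 1917 reads and a log2 fold change of -0.12.

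Of the 17 hosts with under 1000 reads, 13 were below 0, with a median log2 fold change of -0.26. Of these 17, 6 had an interval below 0. In the ranges from 10 to 1000 reads, the medians of all genes ran from -0.06 to 0.03. Of the 15 hosts with at least 1000 reads, 8 were below 0, with a median of -0.01. Among all 5932 genes with at least 1000 reads, 3006 were below 0, also with a median of -0.01. DANCR, a lncRNA that holds back cell differentiation and hosts SNORA26, had 486 and 398 reads, a log2 fold change of -0.52 (95% interval -0.72 to -0.33). SNHG17, host of SNORA71A to SNORA71D, had 473 and 350 reads, a log2 fold change of -0.67 (95% interval -0.87 to -0.47). SNHG12 had 355 and 315 reads, a log2 fold change of -0.41 (95% interval -0.63 to -0.19). TRNAU1AP, which shares 8 exonic bases with it on the other strand, had 235 and 209 reads and the same log2 fold change of -0.41. SNHG26, host of SNORD93, had 131 and 87 reads, a log2 fold change of -0.82 (95% interval -1.23 to -0.42). Thus SNHG17 and SNHG26 were called at 1.5-fold, and DANCR and SNHG12 were not. SNHG10, the host of SCARNA13, had 165 and 154 reads and a log2 fold change of -0.34, and GLRX5, with which it shares 301 exonic bases on opposite strands, had 1197 and 956 reads and a log2 fold change of -0.56.

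For 13 hosts the counting interval included 0, as it did for 48.6% of all compared genes. Among them, SNHG5, the host of SNORD50A and SNORD50B, had 1187 and 1378 reads, and EPB41L4A-AS1, the host of SNORA13, had 585 and 686 reads. Their log2 fold changes were -0.02 (95% interval -0.13 to 0.09) and -0.01 (95% interval -0.17 to 0.15). SNHG16 had 418 and 516 reads and a log2 fold change of 0.07 (95% interval -0.12 to 0.26). For these 3 hosts the intervals were narrow, and a change of 1.5-fold lay outside them. CCDC26 had 198 and 195 reads and a log2 fold change of -0.26 (95% interval -0.55 to 0.03). SNHG19 (122 and 120 reads), SNHG21 (79 and 75 reads), SNHG30 (72 and 76 reads) and SNHG11 (55 and 50 reads) had log2 fold changes from -0.37 to -0.16. SNHG21 is uncertain, since AC105339.2, which had 74 and 99 reads and a log2 fold change of 0.18, shares 72.9% of its exonic bases on the same strand. SNHG20, with 38 and 66 reads, was at 0.55 (95% interval -0.04 to 1.18), and SEC14L1, with which it shares 11.5% of its exonic bases on the same strand, had 581 and 853 reads and a log2 fold change of 0.32. SNHG25 (19 and 22 reads), SNHG22 (7 and 17 reads), SNHG9 (9 and 10 reads) and SNHG31 (5 and 12 reads) had the widest intervals, with bounds from -1.54 for SNHG9 to 2.88 for SNHG31, and a change of 1.5-fold was not detectable at this depth.

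**Figure D3:**
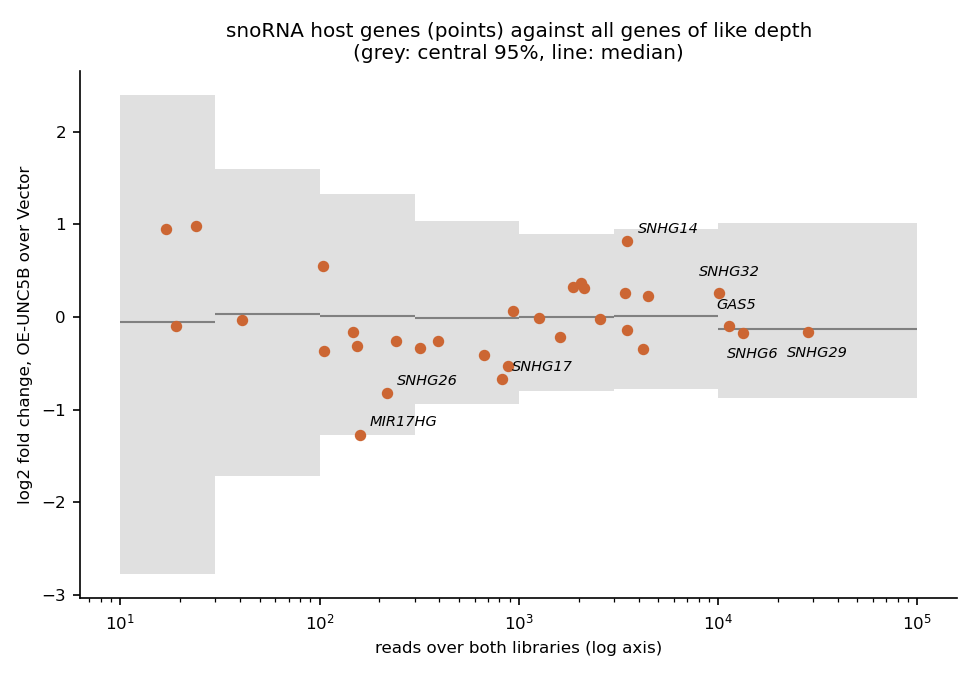
Log2 fold change against reads over both libraries (log axis) for the 32 compared genes (points), with the central 95% (grey) and the median (line) of all genes in the same range of reads. All 32 points lie inside the grey range, MIR17HG at its lower edge and SNHG14 near its upper edge.

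Each host was also set against all genes of like depth. In 7 ranges of total reads, 0 of the 32 hosts lay outside the central 95% of the log2 fold changes of all genes. In the range of 100 to 300 reads this central part ran from -1.28 to 1.33, with MIR17HG at -1.27. In the range of 3000 to 10000 reads it ran from -0.78 to 0.95, with SNHG14 at 0.82. Both snoRNA classes had hosts on either side of 0. The 11 hosts of box C/D snoRNAs alone had a median change (log2) of -0.02 and a range from -0.82 to 0.82. The 11 hosts of H/ACA snoRNAs alone had a median of -0.09 and a range from -0.67 to 0.95. The 4 hosts of both classes (GAS5, TAF1D, SNHG12 and SNHG25) were at -0.41 to -0.03, and the 4 hosts of scaRNAs at -0.34 to 0.99.

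MIR17HG had the lowest log2 fold change of the 32 compared genes. Its locus in GRCh38 is chr13:91347820-91354579, plus strand, and GENCODE 44 gives its main transcript 5 exons. Vector held 107 MIR17HG reads, compared with 52 in the OE-UNC5B-labelled library, or 7.93 and 3.27 CPM, with a log2 fold change of -1.27 (95% interval -1.78 to -0.79). With the deposited FPKM and 1 FPKM added, the log2 fold change was -0.59 and it was not called, as its FPKM was 1.39 and 0.594. The 6 microRNAs that are cut from this transcript are shown because 1 host count stands for all of them, and the microRNAs themselves were not measured here. The mature sequences are from RefSeq (GRCh38.p14), with the seed (bases 2 to 8) in capitals.
hsa-miR-17-5p: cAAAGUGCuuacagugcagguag
hsa-miR-20a-5p: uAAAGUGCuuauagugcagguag
hsa-miR-18a-5p: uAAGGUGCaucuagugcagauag
hsa-miR-19a-3p: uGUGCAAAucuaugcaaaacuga
hsa-miR-19b-3p: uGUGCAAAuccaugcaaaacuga
hsa-miR-92a-3p: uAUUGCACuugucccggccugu
miR-17-5p and miR-20a-5p share the seed AAAGUGC, and miR-19a-3p and miR-19b-3p share the seed GUGCAAA. Of 11 other microRNA host genes listed, 7 were compared, 0 were called at 2-fold or at 1.5-fold, and their median change on the log2 scale was 0.10, which turned to -0.01 when FPKM with 0.1 added was used. MIR223HG, the host of a myeloid microRNA, had 797 and 1101 reads and a log2 fold change of 0.23. MIR155HG, the host of miR-155, had 376 and 590 reads and a log2 fold change of 0.41. DLEU2, the host of miR-15a and miR-16-1, had 438 and 390 reads and a log2 fold change of -0.40. MYC and E2F1, transcription factors known to act on the miR-17-92 promoter, had log2 fold changes of 0.15 (345 and 451 reads) and -0.31 (1002 and 949 reads).

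SNHG14 was the host with the highest ratio among those with at least 1000 reads. Its locus in GRCh38 is chr15:24978583-25419462, plus strand, in the imprinted region that is lost in Prader-Willi syndrome, and is transcribed from the paternal chromosome. Its exons surround the SNORD116 and SNORD115 clusters, and its 3′ part runs antisense to UBE3A, a ubiquitin ligase gene. Vector held 1142 SNHG14 reads, against 2370 in the OE-UNC5B-labelled library, or 84.6 and 149 CPM. Its log2 fold change was 0.82 (95% interval 0.71 to 0.92), a 1.76-fold difference.

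The other genes of this locus were looked up after the value of SNHG14 was seen. SNURF, at the 5′ end of the same transcription unit, had 173 and 348 reads, a log2 fold change of 0.77 (95% interval 0.50 to 1.04). PWAR5 had 127 and 298 reads, a log2 fold change of 0.99 (95% interval 0.69 to 1.31), and PWAR6 had 273 and 525 reads, a log2 fold change of 0.71 (95% interval 0.49 to 0.92). AC124312.3, an unnamed transcript of the locus, had 36 and 65 reads, at 0.61 (95% interval 0.01 to 1.25). RP11-701H24.5 had 5 and 18 reads, at 1.51 (95% interval 0.13 to 3.40), and was the one gene of the locus called at 2-fold. AC124312.1 had 4 and 14 reads, at 1.45, with an interval that included 0. SNRPN, which encodes a spliceosomal protein and overlaps SNURF, had 1069 and 1321 reads, and its log2 fold change was 0.07 (95% interval -0.05 to 0.19). The locus of SNURF lies within that of SNRPN on the same strand. Reads of any shared bases can be split between them by the counting, so the SNURF value is uncertain. UBE3A, on the other strand, had 917 and 1515 reads, a log2 fold change of 0.49 (95% interval 0.37 to 0.61). UBE3A shares 1822 exonic bases with SNHG14, which is 1.5% of the SNHG14 exonic bases, and PWAR5 shares 3180 bases with it on the same strand. Whether the counting used strand is not given in the sources used here, so reads of SNHG14 and UBE3A in shared bases cannot be told apart.

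**Figure D4:**
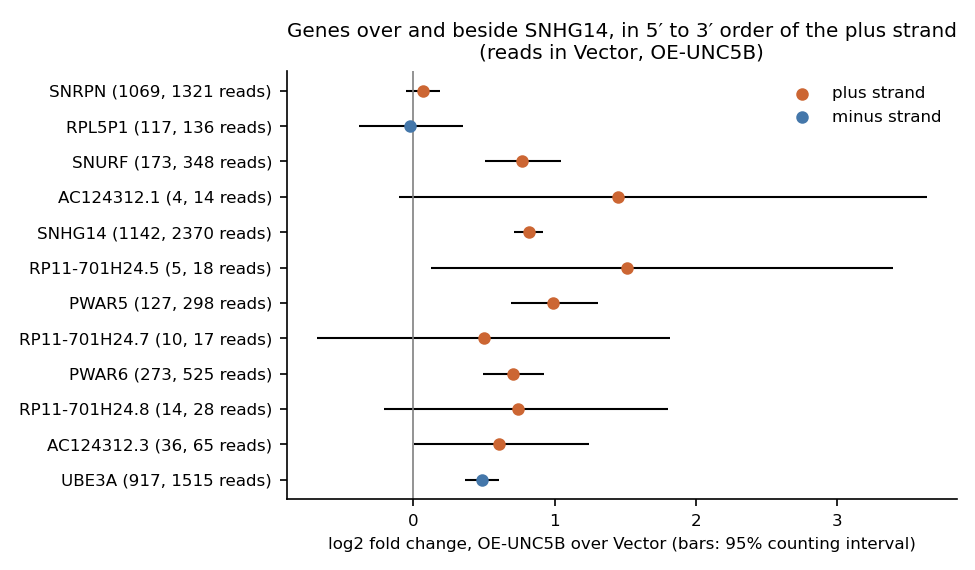
Log2 fold change with 95% counting interval of genes inside and beside SNHG14 that passed the read minimum, in their order along the plus strand, with the reads of both libraries in brackets and points coloured by strand. SNURF, SNHG14, PWAR5 and PWAR6 lie between 0.71 and 0.99, UBE3A at 0.49, the thinly covered RP11-701H24.5 and AC124312.1 at 1.51 and 1.45, and SNRPN and the pseudogene RPL5P1 near 0.

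The start of the hosts was examined for the TOP tract. The start sequences of the 6 hosts with the most reads for which a sequence is printed are from RefSeq (GRCh38.p14) and cover 30 bases before the annotated start and 30 bases from it on. The capitals mark the first run of a C followed by at least 4 further C or T that begins within 10 bases of the start, on the transcribed strand. Each run was counted from its first C, and SNHG29, GAS5, SNHG3 and SNHG1 held none.
SNHG29 (chr17:16438957-16439016, plus strand): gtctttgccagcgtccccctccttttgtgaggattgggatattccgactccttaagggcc
GAS5 (chr1:173869016-173869075, minus strand): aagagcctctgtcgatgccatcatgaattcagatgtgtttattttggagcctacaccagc
SNHG32 (chr6:31834886-31834945, plus strand): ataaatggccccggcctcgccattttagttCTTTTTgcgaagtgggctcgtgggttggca
SNHG3 (chr1:28505913-28505972, plus strand): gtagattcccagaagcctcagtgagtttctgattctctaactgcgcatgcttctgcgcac
SNHG1 (chr11:62855856-62855915, minus strand): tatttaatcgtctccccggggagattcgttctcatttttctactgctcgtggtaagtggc
TAF1D (chr11:93741466-93741525, minus strand): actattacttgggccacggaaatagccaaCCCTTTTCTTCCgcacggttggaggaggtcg
A RefSeq start can differ from the 5′ end of the deposited locus, as it does for each of these 6 hosts. For TAF1D that end is at 93784391, and only for SNHG1 does it fall inside the printed bases. Whether a run lies at the start of the counted transcripts is therefore not known. Start sequences were found for 30 of the 36 genes, and 18 of them (60.0%) held such a run, against 31.4% of the 35116 RefSeq start sequences. The run is a short match of letters and does not show that a transcript begins there. The 17 compared hosts with a run had a median change (log2) of -0.14, and the 10 compared hosts with a sequence but no run had a median of -0.13. Over the 300 bases of each sequence, the ATF4 type element TGATGNAA was in 0 of the 30 hosts and in 3.62% of all sequences, on either strand. CACGTG, the E-box letters, was in 2 of the 30 hosts (SNHG7 and SNHG30) and in 7.26% of all sequences.

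Genes with related functions are given for comparison. Of the 20 listed NMD factors, 0 were called at 2-fold, and at 1.5-fold 1 was called higher and 2 lower. SMG1, the kinase that phosphorylates UPF1, had 3308 and 6049 reads, a log2 fold change of 0.63 (95% interval 0.57 to 0.70). EIF4A3 and RBM8A, both core proteins of the exon junction complex, had log2 fold changes of -0.61 (1976 and 1523 reads) and -0.69 (1392 and 1018 reads). ETF1, the translation release factor, had 3478 and 4073 reads and a log2 fold change of -0.01. The median of the list was 0.06. Of 14 compared protein-coding mRNAs known as NMD-sensitive, 2 were called higher and 0 lower at 1.5-fold, with a median of -0.05. ATF4, the transcription factor of the integrated stress response, had 4993 and 10509 reads, a log2 fold change of 0.84 (95% interval 0.79 to 0.89), and DDIT3, its target, had 82 and 164 reads, a log2 fold change of 0.76 (95% interval 0.37 to 1.16). HNRNPDL, a splicing regulator that controls its own mRNA through NMD, had 6822 and 6780 reads, with a log2 fold change of -0.25.

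The proteins that bind snoRNAs had a median change (log2) of -0.21 over 20 compared genes. Of these, 14 were below 0 and 6 above 0, with 0 called at 2-fold. At 1.5-fold, SNU13, the protein that binds the box C/D motif, was called higher (883 and 1672 reads, log2 fold change 0.68), and SHQ1, an assembly factor of H/ACA particles, was called lower (894 and 690 reads, log2 fold change -0.61). FBL, the methyltransferase of box C/D particles, had 5134 and 4573 reads and a log2 fold change of -0.40. NOP56, which also hosts snoRNAs, had 6056 and 5427 reads and a log2 fold change of -0.39.

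The 25 ribosomal protein genes among the protein-coding snoRNA hosts had a median change (log2) of -0.23, with 19 below 0 and 0 called at 1.5-fold. RPL3 had 33143 and 46784 reads and RPL4 had 35578 and 39520 reads, with log2 fold changes of 0.26 and -0.08. The 78 cytosolic ribosomal protein genes, which include these, had a median of -0.23, with 68 below 0 and 4 called lower at 1.5-fold, among them RPS16, RPS26 and RPS3A. These mRNAs begin with TOP tracts as well. The 16 other coding hosts had a median of -0.12, with 6 above 0 and 10 below 0. Among them HSPA8, a heat shock protein gene that hosts SNORD14 copies, had 24689 and 16411 reads and a log2 fold change of -0.83, and EEF2, the elongation factor that hosts SNORD37, had 103275 and 153630 reads and a log2 fold change of 0.34. Other lncRNAs had a median of 0.10 over 17 genes, with 12 above 0 and 5 below 0, and at 1.5-fold 3 were called higher and 0 lower. NEAT1, the scaffold of nuclear paraspeckles, had 5223 and 8120 reads, a log2 fold change of 0.40, and MALAT1 had 4182 and 4293 reads, a log2 fold change of -0.20. LINC-PINT, with 25 and 60 reads, was at 1.01, HOTAIRM1, with 34 and 68 reads, at 0.75, and KCNQ1OT1, with 76 and 142 reads, at 0.66.

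**Figure D5:**
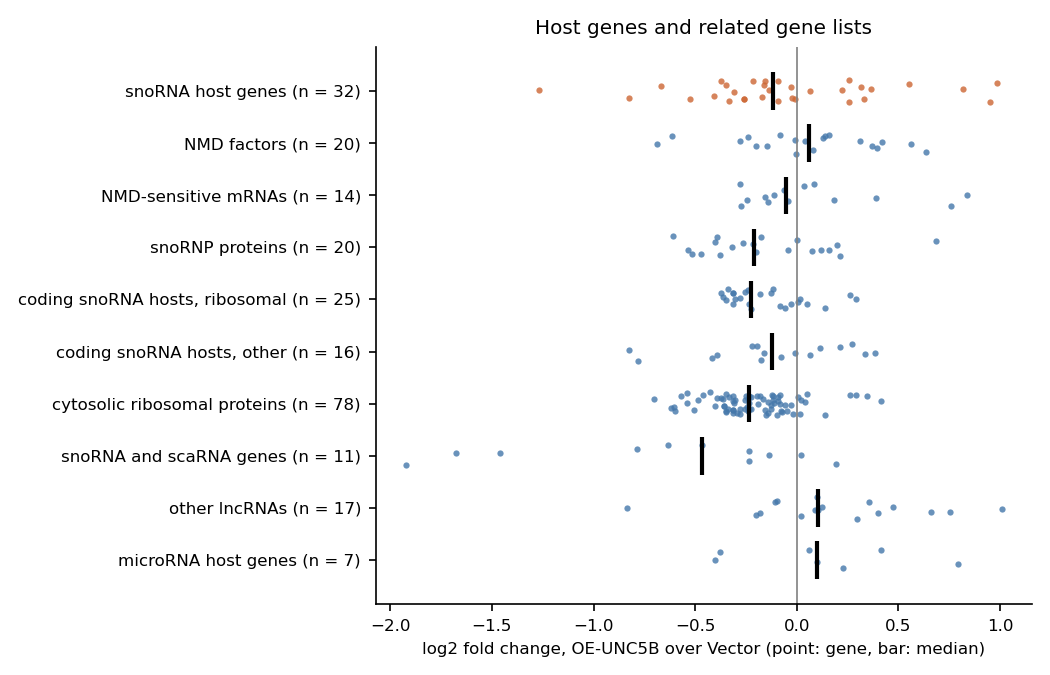
Log2 fold change, the OE-UNC5B-labelled library over Vector, of each compared gene (points) in the snoRNA host genes and the related lists, with the median of each list as a bar. The host genes have a median of -0.11, the cytosolic ribosomal protein genes -0.23, the NMD factors 0.06 and the other lncRNAs 0.10.

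The snoRNA rows of the deposited table held few reads in these libraries, which were prepared from mRNA. The 27 listed snoRNA and scaRNA genes are all those in the table with a numbered SNORA, SNORD or SCARNA symbol. No box C/D snoRNA printed above is among them, and a snoRNA without a row was not measured here. The 27 genes held 207 reads under Vector and 169 under OE-UNC5B, and 11 of them were compared. The one call, SNORD3A, had 14 and 4 reads and a log2 fold change of -1.92 (95% interval -4.10 to -0.37), but it has near-identical copies and its value is uncertain. SNORA73B, which lies within SNHG3, had 45 and 34 reads, and SNORD17 had 41 and 44 reads. The host gene values therefore describe the host RNA and not the amount of mature snoRNA.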

How the data were processed

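Total RNA of MOLM-13 cells was made into mRNA libraries (VAHTS Universal V6 kit) and sequenced on an Illumina HiSeq platform, with 1 library per group. Deposited values were whole-number read counts for each gene, not normalized, and FPKM, which the authors scaled to gene length and library size. The submitters' processing notes name GRCh38, bcl2fastq 2.19, HISAT2 2.0.4 and StringTie 1.3.0. The annotation release, the counting tool and the strand setting are not given in the sources used here.

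Counts were scaled over the whole table with TMM (edgeR 4.0.16, R 4.3.3; factors 0.984 and 1.02). Comparison was limited to genes with 10 or more reads in all. Before taking log2 ratios, 0.5 reads were added. Calls were made at 2-fold (or 1.5-fold) where the 95% Clopper-Pearson interval (scipy 1.17.1) also lay on that side. With 1 library per group no test of the conditions was made, so the calls compare libraries and not conditions. Positions came from the deposited table. Of the 36 gene identifiers, 35 were found in GENCODE 44.

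The members and lists were chosen with earlier results of these data known. All members may be named, in full where they were called or were among the 8 with the most reads. Of the other lists, called genes and the 2 with the most reads are named. Further genes were named after their values were seen, which were DLEU2, MYC, E2F1 and the genes that share exons or a locus with a member. For symbols on several rows, the row with the most reads was used in the lists, and genes that share exons with a member were taken by identifier. As alternatives, scaling used library totals or DESeq2 1.42.0 size factors, and the others were FPKM with 0.1 or 1 added (minimum 1), 2 reads added, no filter, at least 50 reads, the fold alone, folds of 1.5 and 4, and SNHG-numbered genes alone.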

Additional observations from a re-analysis of the deposited data

How the results depend on the processing

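No paired analysis was possible because neither group held a second library, and no replicate could be left out for the same reason. The median log2 fold change of the host genes kept its sign under each alternative, between -0.16 with at least 50 reads and -0.07 with library totals. That of the microRNA host genes turned to -0.01 with 0.1 FPKM added. MIR17HG was lower under each alternative but was not called with 1 FPKM added, where 0 host genes were called lower. By construction, 0 were called lower at 4-fold or among SNHG-numbered genes alone. At 1.5-fold, 1 host gene was called higher and 3 lower.

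Over all genes, 585 were called higher and 571 lower. FPKM with 0.1 added left 392 higher and 281 lower, and with 1 added 165 higher and 130 lower. At least 50 reads left 359 higher and 297 lower, 1.5-fold gave 1406 and 1343, and 4-fold gave 158 and 168. At 1.5-fold, calls were 3 for NMD factors, 2 for NMD-sensitive mRNAs, 2 for snoRNA-binding proteins, 2 for the other coding hosts, 3 for other lncRNAs and 4 for ribosomal proteins. The 1 call among other lncRNAs became 0 with either FPKM setting, 2 reads added or 4-fold, and 2 without a filter. The 1 call among snoRNA genes became 2 with FPKM and 0.1 added, 3 by the fold alone, and 0 with 1 FPKM added, at least 50 reads or 4-fold. Their median was -0.18 and -0.11 with 0.1 and 1 FPKM added and -0.68 without a filter. Beyond the settings' own construction, the cause was not tested. Depth limits the hosts under 100 reads, whose intervals include 1.5-fold changes. The intervals of some hosts with more reads do so too. Examples are SNHG19 (122 and 120 reads, -0.64 to 0.12) and SNHG10 (165 and 154 reads, -0.66 to -0.01).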
